A study of Arabidopsis thaliana with 22 samples.

Results

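MIR842 (AT1G61224) and MIR846 (AT1G61226) are neighbouring microRNA genes of Arabidopsis thaliana. The loci were taken by name from the deposited transcript tables, where both were found, so the set was 2 of 5224 loci. They were chosen by name with their read levels over the study's groups, the measured values behind the choice, already known, so their levels and fold changes are given as descriptions and carry no p-value. RNA came from roots of 11-day-old plants grown with 8 h of light a day, either wild type of the accession Ws or the proscoop12 mutant in the same Ws background, which the labels note for its longer root. Each root gave a meristematic-elongation part (MEZ) and a differentiation part (DZ), after water (control) or 100 nM of the peptide SCOOP12. The 22 libraries formed 8 groups of genotype, zone and treatment, 6 of them with 3 libraries, while Ws MEZ SCOOP12 and Ws DZ control had 2. PROSCOOP12 encodes the precursor of SCOOP12, a secreted signalling peptide of the cabbage family.

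Plant microRNAs are cut by the nuclease DCL1 out of a folded stem in a longer, capped and polyadenylated transcript, and they guide the slicing of messenger RNAs with which they pair closely. miR842 and miR846 are known as root microRNAs whose targets are genes of jacalin-related lectins, sugar-binding proteins of which roots make many. The genes have been described as a cistronic pair whose common transcript is alternatively spliced and responds to abscisic acid. Reads on the precursor loci therefore report the long transcripts and not the mature 21-nt microRNAs, which were not measured here.

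The mature sequences are shown because they decide which messages can be paired. They were read from the RefSeq TAIR10.1 genome at the annotated positions, with the seed (bases 2 to 8) in capitals.
miR842: uCAUGGUCagauccgucaucc
miR846-3p: uUGAAUUGaagugcuugaauu
miR846-5p: cAUUCAAGgacuucuauucag
No seed was shared. miR842 and miR846-3p had the same base at 7 of 21 positions, miR842 and miR846-5p at 3, and the MIR846 products at 5. The loci lie side by side, but their mature sequences and seeds differ.

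Both precursors lie on the forward strand of chromosome 1 in an intergenic stretch, MIR842 at chr1:22577067-22577265 and MIR846 at chr1:22577375-22577733 (359 nt), and 109 nt separate them. The annotated length of each equals the length in the deposited tables. The whole MIR842 precursor and bases 40 to 320 of the MIR846 precursor (chr1:22577414-22577694) are printed because the reads discussed here were assigned to these letters, and the mature parts are in capitals.
MIR842 precursor: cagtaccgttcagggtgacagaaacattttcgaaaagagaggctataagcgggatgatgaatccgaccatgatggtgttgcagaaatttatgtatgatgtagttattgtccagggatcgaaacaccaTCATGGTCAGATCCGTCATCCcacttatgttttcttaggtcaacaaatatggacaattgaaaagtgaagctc
MIR846 precursor, bases 40 to 320: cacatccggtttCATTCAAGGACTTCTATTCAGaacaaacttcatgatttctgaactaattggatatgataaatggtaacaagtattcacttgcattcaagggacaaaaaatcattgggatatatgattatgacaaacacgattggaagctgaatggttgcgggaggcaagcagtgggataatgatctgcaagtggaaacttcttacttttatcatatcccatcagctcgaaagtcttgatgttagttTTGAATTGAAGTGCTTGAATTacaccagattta
The predicted fold of lowest free energy paired 68.3% of the MIR842 bases at -66.5 kcal/mol and 67.4% of the MIR846 bases at -109.4 kcal/mol. miR842 occupies bases 128 to 148 of its precursor. MIR846 carries miR846-5p at bases 52 to 72 and miR846-3p at bases 288 to 308.

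The next coding gene, AT1G61230, starts 1217 nt after MIR846 and encodes a member of the mannose-binding lectin superfamily, the annotation's name for jacalin-related lectins. It holds the site with the closest match to miR846-3p among the mRNAs searched. The sites below, from RefSeq TAIR10.1, show how closely the messages pair with the microRNAs, with bases in Watson-Crick pairs in capitals.
AT1G61230 site for miR846-3p, chr1:22579561-22579581, forward strand: cATTCAAGCACTTCAATTCAA
AT1G60130 site for miR842, chr1:22174265-22174285, forward strand: GGATGAtGGATCcGACCATGA
AT5G38540 site for miR842, chr5:15430348-15430368, reverse strand: GGATGAtGGtTCTGACCATGA
The AT1G61230 site pairs at 20 of 21 bases, and a second site for miR846-3p in the same gene, at chr1:22579028-22579048, pairs at 19. Sites were scored without gaps, with 1 penalty point for a mismatch and 0.5 for a G-U pair, doubled at microRNA positions 2 to 13, and kept up to 4 points. Over the 31346 genes and pseudogenes with an annotated mRNA, miR842 had such a site in 11 genes, of which 8 were among 40 listed jacalin-related lectin genes (20% of the list, against 0.00958% of all other genes). For miR846-3p it was 16 genes, 14 of them on the list (35.0%, against 0.00639%). Sites for both microRNAs occurred in 4 genes, AT1G52070, AT1G57570, AT5G28520 and AT5G38550, all on the list. miR846-5p had sites in 2 genes and in none of the list. These are letter matches, and no cleavage was measured.

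**Figure D1:**
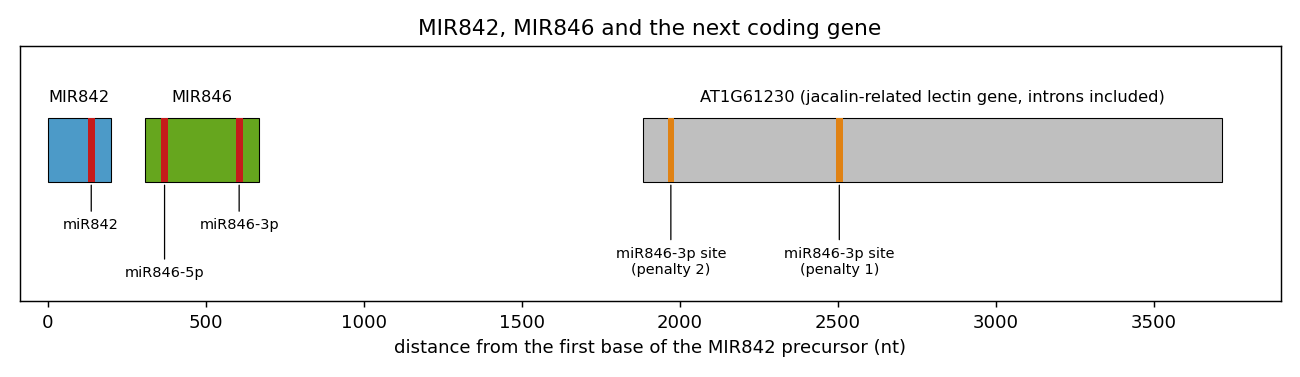
The MIR842 and MIR846 precursors and the coding gene AT1G61230, drawn to scale by distance in nt from the first base of MIR842, with mature microRNAs in red and the 2 sites for miR846-3p in orange. The precursors lie 109 nt apart, and AT1G61230 starts 1217 nt after MIR846.

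The MIR846 precursor itself resembles the lectin genes. A blastn search found 14 coding genes like it, all 14 on the lectin list, and none like MIR842. The nearest was AT1G61230, with 77.3% identity over 154 nt in the same orientation and 89.2% over 83 nt in the opposite orientation. No alignment reached 95% identity over 100 nt. Whether reads of lectin messages were counted at MIR846 was not tested. None of the 40 lectin genes, nor of 12 genes for microRNA production, has a value in the tables used here, which list non-coding transcripts, so target levels were not analysed here. Among the 3 annotated genes on each side of the pair, the lncRNA AT1G08363 is listed, with 0 reads in all libraries. The lncRNA AT1G08307, which overlaps the lectin gene AT1G60130 on the same strand, had 4 reads in all. Windows were taken from 250 nt before to 50 nt after the annotated start of each precursor. Neither ACGTG, the core of abscisic acid response elements, nor TATAAA was found there on either strand. Of 33054 gene windows, 25.7% and 50.6% held them. The MIR846 window starts at chr1:22577125, inside the MIR842 precursor, and where transcription of the pair starts was not tested. The windows therefore need not be promoters, and no absence of promoter motifs follows.

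Libraries held 474434 to 1575524 reads on the listed loci, of which 80.0% to 90.4% lay on rRNA. As rRNA were counted 21 loci, namely annotated rRNA genes, a list of organellar rRNA loci, and loci close to nuclear rRNA genes. The last start within 6000 nt of the start of such a gene, whatever their own annotated class. The share on organellar rRNA was 17.2% to 21.9% in MEZ and 19.7% to 46.9% in DZ. The 10 zone marker genes listed for a check of the dissection are not among the transcripts analysed here. Levels are in counts per 1000000 (CPM), that is, reads per 1000000 reads on the 844 loci that passed the expression filter, with library sizes scaled by TMM. Both precursors passed the filter, which asks for enough reads in at least as many libraries as the smallest group has. MIR846 met this only through replicate 3 of proscoop12 MEZ control and replicate 1 of proscoop12 MEZ SCOOP12. Its place among the tested loci thus rests on the mutant MEZ libraries where it was high. For 2 libraries the file name and the label disagree. Replicate 3 of Ws DZ SCOOP12 bears the name of proscoop12 DZ control in its file name, and replicate 3 of proscoop12 DZ control bears that of Ws DZ SCOOP12. Groups follow the labels here. Values of MIR842 and MIR846 without both libraries stand beside the fold changes, group means, shares and likeness that rest on them. The other microRNA precursors are given only with both libraries in. Organellar rRNA took 20.3% of reads in the former, against 46.9% in replicate 1 and 19.7% in replicate 4 of its labelled group. In the latter it took 38.5%, against 43.9% and 36.1% in those replicates of its labelled group. With the groups exchanged, 20.3% would lie below both other proscoop12 DZ control libraries, and 38.5% between both other Ws DZ SCOOP12 libraries. Ws DZ control held 38.5% to 39.3%. In proscoop12 DZ SCOOP12, replicate 1 held 38.2%, replicate 3 22.5% and replicate 4 25.2%. In both genotypes the high share with SCOOP12 in DZ was thus that of replicate 1. Within replicates 3 and 4, the DZ libraries as labelled held 19.7% to 25.2% with SCOOP12 and 36.1% to 39.3% in control. The labels thus separate the treatments there, and exchanged groups would not. The share alone does not settle which name is right.

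MIR842 was read in every library, at 11 to 53 reads with a median of 25.5, and collected 591 reads in all. That placed it 8th by reads among the 17 microRNA precursors that passed the filter. MIR846 was also read in every library but at only 1 to 9 reads, 104 in all, which was the last place of the 17. Its values therefore carry large counting errors, and a difference in a few reads changes a group mean. MIR842 ranged from 13.2 to 54.8 CPM and MIR846 from 1.15 to 11.2 CPM over the libraries.

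In MEZ, Ws control libraries 1, 3 and 4 held 22.9, 17 and 13 MIR842 reads, which was 28.8, 20.2 and 20.3 CPM. The Ws MEZ SCOOP12 libraries 3 and 4 held 25 and 36 reads, or 31.4 and 54.7 CPM. Both lay above all Ws MEZ control libraries, so these groups did not overlap. The proscoop12 MEZ control libraries 1, 3 and 4 held 27, 33 and 53 reads, or 32.9, 41.0 and 54.8 CPM. With SCOOP12 the same mutant tissue held 24.9, 29 and 36 reads, or 29.0, 33.8 and 41.7 CPM. Every proscoop12 MEZ library without and with peptide exceeded the highest Ws MEZ control library, narrowly so for replicate 1 of the treated group.

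In DZ, the Ws control libraries 3 and 4 held 25 and 26 MIR842 reads, or 28.7 and 33.8 CPM. With SCOOP12, Ws DZ libraries 1, 3 and 4 held 16, 36.9 and 41 reads, or 19.8, 36.2 and 37.6 CPM, a spread that enclosed both control libraries. The proscoop12 DZ control libraries held 11, 11 and 14 reads, or 13.2, 14.6 and 22.4 CPM, and included the lowest level of the study. In proscoop12 DZ with SCOOP12 there were 20, 41 and 32 reads, or 24.6, 40.7 and 32.6 CPM. The proscoop12 DZ control libraries thus lay below all proscoop12 DZ libraries with SCOOP12 and below both Ws DZ control libraries.

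Ordered by mean, MIR842 was highest in Ws MEZ SCOOP12 (43.0 ± 16.4 CPM, SD, n = 2) and proscoop12 MEZ control (42.9 ± 11.1, n = 3). Then came proscoop12 MEZ SCOOP12 (34.8 ± 6.37, n = 3), proscoop12 DZ SCOOP12 (32.6 ± 8.08, n = 3), Ws DZ control (31.3 ± 3.56, n = 2) and Ws DZ SCOOP12 (31.2 ± 9.90, n = 3). Ws MEZ control (23.1 ± 4.96, n = 3) and proscoop12 DZ control (16.7 ± 4.95, n = 3) were lowest. Each step between neighbours in this order was within the pooled SD of 8.59 CPM, and the ranges of neighbouring groups overlapped. The highest mean was 2.57 times the lowest. Without the libraries whose file names differ, the mean was 28.7 ± 12.6 CPM in Ws DZ SCOOP12 and 17.8 ± 6.52 in proscoop12 DZ control (n = 2 each).

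**Figure D2:**
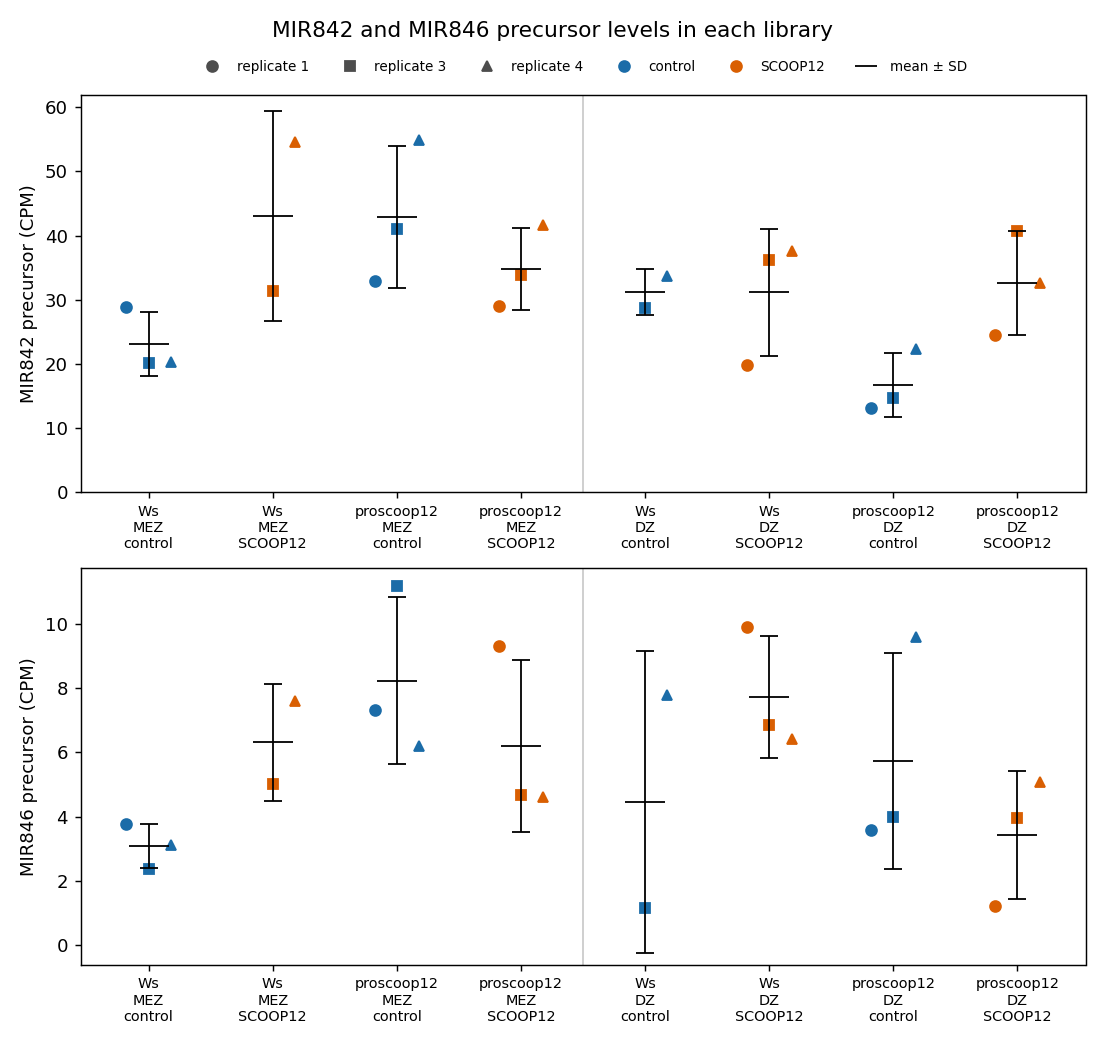
CPM of the MIR842 precursor (top) and the MIR846 precursor (bottom) in each of the 22 libraries, by group, with symbols for replicates, colours for treatment, and black bars for the group mean ± SD. MIR842 was lowest in proscoop12 DZ control, at 13.2 to 22.4 CPM, and MIR846 stayed between 1.15 and 11.2 CPM.

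MIR846 was low in the 3 Ws MEZ control libraries, with 3.08, 2 and 2 reads or 3.76, 2.38 and 3.13 CPM. Ws MEZ SCOOP12 held 4 and 5 reads, or 5.03 and 7.59 CPM, and proscoop12 MEZ control 6, 9 and 6 reads, or 7.32, 11.2 and 6.21 CPM. Both groups lay wholly above Ws MEZ control. With SCOOP12, proscoop12 MEZ held 8.07, 4 and 4 reads, or 9.30, 4.66 and 4.63 CPM. In DZ, the Ws control libraries 3 and 4 were far apart, with 1.01 and 6 reads or 1.15 and 7.79 CPM. Ws DZ SCOOP12 held 8, 7.05 and 7 reads, or 9.89, 6.84 and 6.42 CPM. The Ws DZ control library of 1.15 CPM was thus below this group and that of 7.79 CPM within it. The proscoop12 DZ control libraries held 3, 3 and 6 reads, or 3.59, 3.99 and 9.59 CPM, and the proscoop12 DZ SCOOP12 libraries 1, 4 and 5 reads, or 1.23, 3.97 and 5.10 CPM. All 3 of the latter were below every Ws DZ SCOOP12 library.

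By mean, MIR846 ran from proscoop12 MEZ control (8.23 ± 2.61 CPM, SD, n = 3) and Ws DZ SCOOP12 (7.72 ± 1.89, n = 3) down to proscoop12 DZ SCOOP12 (3.43 ± 1.99, n = 3) and Ws MEZ control (3.09 ± 0.694, n = 3). The other 4 means lay between 4.47 and 6.31 CPM. Every step was within the pooled SD of 2.56 CPM. Ws MEZ control was the lowest group of MIR846 and the second lowest of MIR842, and proscoop12 MEZ control was the highest and the second highest. Without the libraries whose file names differ, MIR846 had a mean of 8.16 ± 2.45 CPM in Ws DZ SCOOP12 and 6.59 ± 4.24 in proscoop12 DZ control (n = 2 each).

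The zones were compared first, in each genotype and treatment. In proscoop12 control plants, MIR842 was lower in DZ than in MEZ, at a log2 fold change of -1.37 (SE 0.35), from 113 reads in MEZ to 36 in DZ, and the libraries did not overlap. Of all 844 loci tested, 18.1% were likewise lower in every DZ library than in any MEZ library. As the background of that comparison, 167 loci (19.8%) passed an adjusted p under 0.05 in edgeR's quasi-likelihood test. Without the libraries whose file names differ, 115 passed. The MIR842 value was -1.22 without the libraries whose file names differ and -0.83 with their groups exchanged. Replicates 1 and 3 share a number in their file names and replicate 4 has another. The labels used here do not say what it stands for. Replicates 1 and 3 gave -1.30, and replicate 4 gave -1.196 with 1 library a group. MIR846 was at -0.55 (SE 0.62) in overlapping groups, with -0.27 without the libraries whose file names differ, -1.16 in replicates 1 and 3 and 0.65 in replicate 4.

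The other zone comparisons of MIR842 were smaller, and all 3 pairs of groups overlapped. The log2 fold change of DZ over MEZ was 0.43 (SE 0.38) in Ws control, where 18.4% of all loci passed. In Ws with SCOOP12 it was -0.44 (SE 0.37), and 0.948% of loci passed. That value was -0.80 without Ws MEZ SCOOP12 replicate 3, 0.0008 without replicate 4 of the same group, -0.50 without the libraries whose file names differ and -0.81 with those exchanged. In proscoop12 with SCOOP12 it was -0.09 (SE 0.33), and 0.948% of loci passed, or 81 loci in place of 8 with the replicate number as a block. Averaged over genotypes and treatments the difference was -0.37 (SE 0.18), or -0.32 without the libraries whose file names differ, while 37.8% of loci passed.

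MIR846 gave a zone value of 0.48 (SE 0.80) in Ws control, in overlapping groups. Its sign rests on the Ws DZ control libraries, with -1.31 when replicate 4 was left out and 1.30 when replicate 3 was, and likewise -1.25 in replicates 1 and 3 and 1.18 in replicate 4. With SCOOP12 the values were 0.28 (SE 0.69) in Ws and -0.79 (SE 0.65) in proscoop12, again with overlap, and the latter was -1.34 in replicates 1 and 3 and 0.13 in replicate 4. The Ws value was 0.41 without the libraries whose file names differ. The average over the zones' 4 comparisons was -0.14 (SE 0.35), with -0.76 within replicates 1 and 3, 0.45 within replicate 4 and -0.021 without the libraries whose file names differ.

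SCOOP12 was then compared with control. In Ws MEZ, MIR842 was higher with the peptide by a log2 fold change of 0.88 (SE 0.38) and MIR846 by 0.99 (SE 0.77), and neither overlapped its control. Of all loci, 17.7% were likewise higher without overlap in that comparison, and 0.237% passed the test. The MIR842 value was 0.37 within replicates 1 and 3, 1.35 within replicate 4, and 0.44 without Ws MEZ SCOOP12 replicate 4. In Ws DZ the values were 0.01 (SE 0.37) for MIR842 and 0.79 (SE 0.72) for MIR846, with overlapping groups, and 0.355% of loci passed. Without the libraries whose file names differ they were -0.13 and 0.83. Without Ws DZ control replicate 4 the MIR846 value was 2.58 and without replicate 3 it was -0.03, and those libraries held 6 and 1.01 reads.

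In proscoop12 MEZ, the peptide went with values of -0.30 (SE 0.33) for MIR842 and -0.39 (SE 0.60) for MIR846, in overlapping groups, and 0.829% of loci passed, or 23 loci in place of 7 with the replicate number as a block. In proscoop12 DZ, MIR842 was higher with SCOOP12 by 0.98 (SE 0.35), from 36 to 93 reads, without overlap. In that comparison 10.3% of loci were higher without overlap and 1.3% passed, or 50 loci in place of 11 with the block, under which MIR842 was again at 0.98 (SE 0.32). MIR846 was at -0.64 (SE 0.67) there, in overlapping groups, and at -0.85 without the libraries whose file names differ. The MIR842 difference was 0.88 without those libraries, 0.44 with them exchanged, 1.17 within replicates 1 and 3 and 0.45 within replicate 4. Organellar rRNA also differed between these groups, at 36.1% to 43.9% of reads in the control libraries and 22.5% to 38.2% with SCOOP12, and its part in the result was not tested.

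The difference between the SCOOP12 effects of the genotypes was -1.18 (SE 0.50) for MIR842 in MEZ, proscoop12 minus Ws. It was -0.74 without Ws MEZ SCOOP12 replicate 4, -0.55 within replicates 1 and 3 and -1.76 within replicate 4. In DZ the difference was 0.97 (SE 0.51), with 1.003 without the libraries whose file names differ, 1.23 within replicates 1 and 3 and 0.29 within replicate 4. No locus of the table passed for either difference in edgeR (0.0% of 844), with 15 in MEZ and 21 in DZ at an unadjusted p under 0.05 and 0 by DESeq2 in each. For MIR846 the differences were -1.38 (SE 0.98) in MEZ and -1.43 (SE 0.98) in DZ, and the latter ran from -3.24 without Ws DZ control replicate 4 to -0.62 without replicate 3, and was -1.68 without the libraries whose file names differ. The difference of the SCOOP12 effect between the zones was 1.28 (SE 0.48) for MIR842 in proscoop12, DZ minus MEZ, where 0.592% of loci passed. With the replicate number as a block, 26 loci passed there in place of 5. The MIR842 value was 1.14 without the libraries whose file names differ and 0.74 with them exchanged.

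The genotypes were compared last. Without peptide, MIR842 in MEZ was higher in proscoop12 than in Ws by 0.89 (SE 0.34), and MIR846 by 1.37 (SE 0.67). In neither did the groups overlap, but MIR846 had passed the filter only through proscoop12 MEZ libraries. In that comparison 4.03% of loci were higher without overlap and 0.118% passed. By reads, the ratio of proscoop12 to Ws was 1.87 for MIR842 (95% exact counting interval 1.34 to 2.65) and 2.64 for MIR846 (1.08 to 7.35), which covers counting error only. Within replicates 1 and 3 the values were 0.56 for MIR842 and 1.52 for MIR846, and within replicate 4 they were 1.40 and 0.86. In DZ without peptide, MIR842 was lower in proscoop12, at a log2 fold change of -0.91 (SE 0.39), without overlap, as were 9.48% of loci, and 0.0% passed in edgeR (0 of 844, with 32 at an unadjusted p under 0.05 and 0 by DESeq2). That value was -0.84 without the libraries whose file names differ, -0.37 with them exchanged, -1.03 within replicates 1 and 3 and -0.52 within replicate 4. MIR846 gave 0.34 (SE 0.75) there, with 2.14 when Ws DZ control replicate 4 was left out and -0.48 when replicate 3 was, and 0.52 without the libraries whose file names differ.

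With SCOOP12 the genotype values of MIR842 were -0.30 (SE 0.37) in MEZ and 0.06 (SE 0.33) in DZ, with overlapping groups. The intervals of 2 SE ran from -1.03 to 0.44 and from -0.60 to 0.72. The MEZ value was 0.15 without Ws MEZ SCOOP12 replicate 4, and the DZ value was 0.16 without the libraries whose file names differ and 0.42 with them exchanged. MIR846 was at -0.01 (SE 0.72) in MEZ. In DZ it was lower in proscoop12, at -1.09 (SE 0.63), with 10 reads against 22 and no overlap, as were 1.42% of loci, and 0.0% passed (0 of 844 in edgeR, with 8 at an unadjusted p under 0.05, 1 by DESeq2 and 1 with the replicate block). That value was -1.16 without the libraries whose file names differ, -1.58 within replicates 1 and 3 and -0.32 within replicate 4. Comparisons that use the same groups are not independent: proscoop12 DZ control enters the zone, peptide and genotype values of MIR842 of -1.37, 0.98 and -0.91, and Ws MEZ control enters 0.88 and 0.89.

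**Figure D3:**
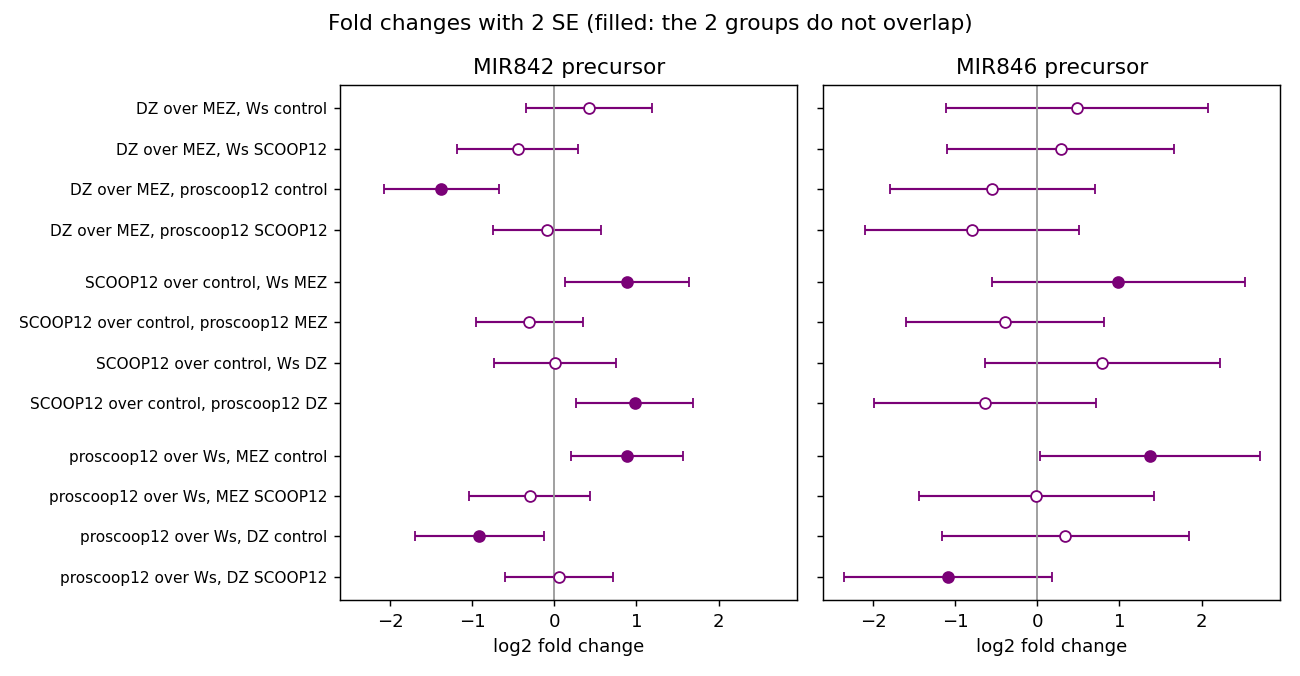
Log2 fold changes of the MIR842 precursor (left) and the MIR846 precursor (right) in the 12 comparisons of 2 groups, with bars of 2 SE and filled points where no library of one group lies within the other. For MIR842 the 5 filled points run from -1.37 to 0.98, and the bars of MIR846 are wider in every comparison.

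MIR842 was highest in replicate 4 in 6 of the 8 groups and lowest in replicate 4 in none, while replicate 1 was lowest in 5 of the 6 groups that have it. MIR846 was highest in replicate 4 in 4 groups and lowest in 3. Replicate 1 is missing from Ws MEZ SCOOP12 and from Ws DZ control. With the replicate number as a block, MIR842 was at 0.70 for SCOOP12 in Ws MEZ (0.88 without the block) and 0.12 in Ws DZ (0.01). For the zones it was at 0.27 in Ws control (0.43) and -0.32 in Ws with SCOOP12 (-0.44). By genotype it was at -0.79 in DZ control (-0.91) and -0.16 in MEZ with SCOOP12 (-0.30). The part of the missing replicate in these values was not tested further.

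Levels of the 2 precursors were set against each other only within a library. Per effective length, in transcripts per 1000000 (TPM), MIR842 exceeded MIR846 in all 22 libraries, by a median ratio of 21.4 and from 6.60 to 81.0. In reads the median ratio was 6.33, because the effective length in the tables was 50.3 nt for MIR842 and 164 nt for MIR846 at the median. MIR846 took 104 of 695 reads on the pair, or 14.96% (exact 95% interval 12.4 to 17.8). By group the share was lowest in proscoop12 DZ SCOOP12, at 9.71% (4.75 to 17.1; 10 of 103 reads), and highest in proscoop12 DZ control, at 25% (13.6 to 39.6; 12 of 48 reads). Its libraries ran from 4.76% to 13.5% in the former and from 21.4% to 30.0% in the latter, so these did not overlap. They were picked as the extremes of the 8 groups, so that separation carries no weight of its own. Single libraries elsewhere went further, at 33.3% in Ws DZ SCOOP12 replicate 1 and 3.87% in Ws DZ control replicate 3. The other 6 groups had shares of 11.7% to 19.0%. Without the libraries whose file names differ, the share was 26.5% (12.9 to 44.4; 9 of 34 reads) in proscoop12 DZ control and 20.8% (12.2 to 32.0; 15 of 72 reads) in Ws DZ SCOOP12. Read estimates were whole numbers in 18 libraries, within 0.001 reads. In the other 4 the estimates of MIR842 and MIR846 were fractional and added up to whole numbers, such as 22.924 and 3.076 reads that sum to 26 in Ws MEZ control replicate 1.

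**Figure D4:**
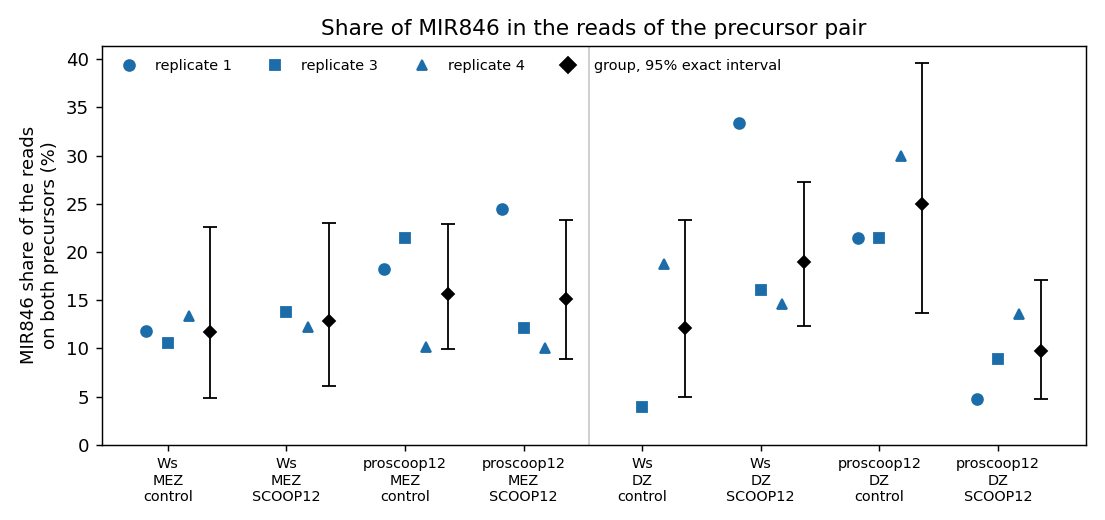
Share of MIR846 in the reads on both precursors, in percent, for each library (symbols by replicate) and for each group with its exact 95% counting interval (black). The share was 25% in proscoop12 DZ control and 9.71% in proscoop12 DZ SCOOP12.

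The group means of the precursors were only loosely alike, but those of MIR846 rest on 7 to 22 reads a group. The part of counting error in this was not tested. Over the 8 group means of log2 CPM, Pearson's r between the precursors was 0.36, which put MIR846 in place 205 of 843 loci in likeness to MIR842. The locus most like MIR842 was TAS1C (AT2G39675, r = 0.95), a precursor of trans-acting small interfering RNAs that is cut under the guidance of a microRNA. TAS1C had means of 13.8 CPM in Ws MEZ control, 26.4 in Ws MEZ SCOOP12, 27.9 in proscoop12 MEZ control and 17.4 in proscoop12 MEZ SCOOP12. In DZ its means were 18.1 in Ws control, 20.2 in Ws SCOOP12, 9.41 in proscoop12 control and 21.7 in proscoop12 SCOOP12. Like MIR842, it was thus lowest in proscoop12 DZ control and second lowest in Ws MEZ control. The next 4 were AT3G00650 (0.93), AT2G09640 (0.92), AT3G05152 (0.89) and the snoRNA AT1G06397 (0.87). The least alike were AT1G09363 (-0.89), AT3G12502 (-0.82) and AT3G01335 (-0.82), all higher in proscoop12 DZ control than in any other group.

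For MIR846 the most alike loci were AT1G05873 (r = 0.83), the snoRNA AT4G39364 (0.77), AT5G09535 (0.74), AT5G08880 (0.73) and the microRNA precursor MIR860 (AT5G26038, 0.70). The least alike were AT2G44255 (-0.80), AT1G08727 (-0.72) and AT4G08795 (-0.72). Without the libraries whose file names differ, r between the precursors was 0.23, in place 297. The 5 loci most like MIR842 were then the same 5, with TAS1C second (0.93) after AT2G09640 (0.98), and 1 of its 3 least alike loci was the same. For MIR846, 4 of the 5 most alike and 1 of the 3 least alike were the same. These coefficients were ranked over many loci with 8 points each, and the points share libraries and their scaling, so they are a description only.

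**Figure D5:**
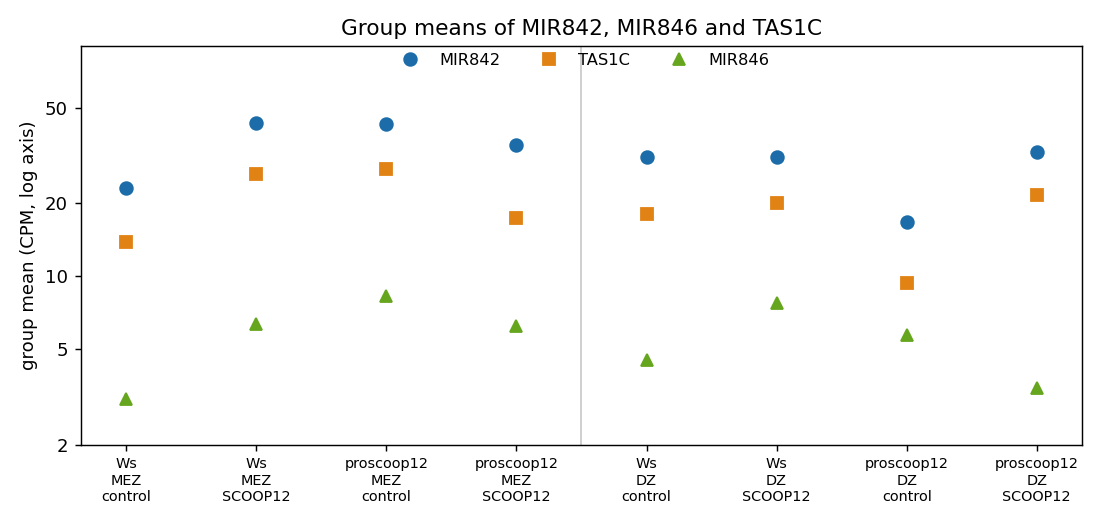
Group means of MIR842, MIR846 and TAS1C in CPM on a log axis, for the 8 groups. MIR842 and TAS1C were both lowest in proscoop12 DZ control, at 16.7 and 9.41 CPM, and MIR846 was lowest in Ws MEZ control, at 3.09 CPM.

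Other microRNA precursors give the scale of these differences. Of 314 in the tables, 133 had reads and 15 passed the filter. In the zone average 3 of the 15 rose and 5 fell in DZ by edgeR's adjusted p, with a median log2 fold change of -0.30, beside -0.02 over all tested loci. Of all tested loci, 37.8% passed in that average. MIR822, whose product is unusual in being cut by DCL4, fell by 2.15 on the log2 scale in DZ as the average of the 4 zone comparisons (SE 0.34, adjusted p = 4.69e-05). In Ws control alone it fell by 3.29 (SE 0.80, adjusted p = 0.00698), from a mean of 416 ± 121 CPM (SD, n = 3) in MEZ to 41.98 ± 44.7 (n = 2) in DZ. MIR408, known for its response to copper supply, had an average change of -1.41 (SE 0.38, adjusted p = 0.00604). Its zone comparisons differed, at -2.71 in proscoop12 control, the only one that passed, and -0.11 (SE 0.77) in Ws control. With SCOOP12 they were -1.87 in Ws and -0.96 in proscoop12. MIR835 (-0.73), MIR5642a (-0.78) and MIR8181 (-0.77) fell by less, and MIR414 (1.30), MIR415 (1.2) and MIR2936 (0.53) rose. In proscoop12 control, 3 rose (MIR415, MIR414 and MIR2936) and 3 fell (MIR408, MIR822 and MIR8181). In Ws control 2 rose (MIR415 and MIR414) and 2 fell (MIR822 and MIR8181). Over all tested loci, 19.8% passed between the zones in proscoop12 control and 18.4% in Ws control. None of the 15 passed in any comparison of SCOOP12 with control or of the genotypes in edgeR, with 0 to 2 at an unadjusted p under 0.05 in each, and DESeq2 called 1, in proscoop12 MEZ with SCOOP12. In these 8 comparisons the medians of the 15 lay between -0.21 and -0.02, and those of all tested loci between -0.04 and 0.05.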

How the data were processed

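The authors quantified reads with Salmon and named DESeq2, per the submitters' processing notes. Libraries were stranded mRNA libraries from total RNA with paired reads of 100 nt, per the labels' protocols. For versions, build, annotation and counted strand, the sources used here give nothing. The deposited files give Salmon's estimated counts and TPM per transcript, per the file headers. TPM sum to 1000000 over the listed loci, so they depend on rRNA.

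Estimated counts were rounded. The model, in edgeR 4.0.16 with limma 3.58.1 under R 4.3.3, had a mean for each of the 8 groups over all 22 libraries, with TMM scaling, filterByExpr (minimum count 10, minimum total 15) and the quasi-likelihood F test. This tested 844 loci, with Benjamini-Hochberg adjustment within each comparison, called at 0.05. The SE was derived as the size of the log2 fold change divided by the root of F. The common dispersion was 0.133. Counting intervals are exact at 95% and cover counting error only. Replicates within a group differed by more than counting error (chi-square per degree of freedom 6.98 to 352 over their pairs). The highest, 250 and 352, were those of Ws DZ SCOOP12 replicate 1 with replicates 3 and 4. No label states that replicates were separate cultures, and p-values therefore cover only the spread between these libraries.

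Deviations from the group mean correlated, between libraries of equal replicate number and over the 844 loci, at 0.118 to 0.305 for SCOOP12 in proscoop12 MEZ, 0.208 to 0.387 for SCOOP12 in proscoop12 DZ, 0.363 to 0.528 for the zones in proscoop12 with SCOOP12 and 0.373 to 0.635 for the genotypes in DZ with SCOOP12. With 3 pairs each, the numbers pair the libraries there. All printed values still come from the model without the block, and the blocked value stands beside those it changes by more than 1.5 times. In the others there were 2 pairs or a correlation under 0.1.

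Genomic sequence, positions, names and mature microRNAs come from RefSeq TAIR10.1, whose locus names matched 5182 of 5224 loci. Folds were computed with RNAfold 2.7.2 and similarity with blastn 2.17.0 (e-value up to 1e-05). The alternatives were RLE scaling, no filter, rRNA left out, the replicate block and DESeq2 1.42.0. Further ones left out single libraries or both mismatched libraries, exchanged groups, or took replicates 1 and 3 apart from replicate 4. Levels, shares and likeness without the mismatched libraries were added after seeing the data. Loci named beside the precursors are the 5 most and 3 least alike over group means, the other microRNA precursors called between zones, and neighbours with a value. The precursors and all lists were chosen with earlier results of these data known.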

Additional observations from a re-analysis of the deposited data

Results flagged for a closer look

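The genotype difference of MIR842 without peptide ran in opposite directions in the zones. Every proscoop12 library was above every Ws library in MEZ (log2 fold change 0.89) and below every Ws library in DZ (-0.91). The difference between these values was not tested. In MEZ 4.03% of all loci were likewise higher without overlap, and in DZ, where Ws control has 2 libraries, 9.48% were likewise lower. Loci that passed the edgeR test made up 0.118% in MEZ and 0.0% in DZ. The pattern was flagged in a scan of 8 pairs of comparisons. In DZ the MIR842 value was -0.37 when the groups of the libraries with differing file names were exchanged.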

How the results depend on the processing

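Over 9 settings, 280 of 306 precursor values stayed within the spread between replicates of their main value, and 26 moved further. Of 748 values with a single library left out, 733 stayed within that spread and 15 did not. Most libraries are not part of a given comparison, so leaving them out could hardly move its value. The spread was the pooled SD between single libraries, 0.376 log2 units for MIR842 and 0.680 for MIR846. A change of sign within it could count as staying, so these tallies are no measure of robustness. Where a value moved, the cause was not tested, except that replicates 1 and 3 alone and replicate 4 alone hold fewer libraries. Depth limits MIR846, with 104 reads over 22 libraries.

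With the groups of the mismatched libraries exchanged, the MIR842 values were -0.83 (zones, proscoop12 control), 0.44 (SCOOP12, proscoop12 DZ) and -0.37 (genotype, DZ control). Replicates 1 and 3 alone gave 0.37 for MIR842 with SCOOP12 in Ws MEZ, 2.67 for MIR846 with SCOOP12 in Ws DZ and 1.62 for MIR846 by genotype in DZ control. Replicate 4 alone, with no test, gave 1.35 (MIR842, SCOOP12, Ws MEZ), 0.45 (MIR842, SCOOP12, proscoop12 DZ), 1.40 and -0.52 (MIR842, genotype, MEZ and DZ control), 0.65 (MIR846, zones, proscoop12 control) and -0.26 (MIR846, SCOOP12, Ws DZ). The ratio of MIR842 to MIR846 was 6.33 in reads against 21.4 in TPM, since the latter is per length.

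MIR842 between zones in proscoop12 control was at -1.32 without the expression filter, -1.22 without both mismatched libraries and -1.30 in replicates 1 and 3 alone.

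With single libraries left out, the MIR842 value for SCOOP12 in Ws MEZ ran from 0.44 to 1.23, the MIR846 value for SCOOP12 in Ws DZ from -0.030 to 2.58, and that for genotype in DZ control from -0.48 to 2.14. Counts of loci called ran from 1 to 3 (SCOOP12, Ws MEZ), 1 to 6 (Ws DZ), 1 to 8 (proscoop12 MEZ), 4 to 14 (proscoop12 DZ) and 0 to 1 (genotype, MEZ control).

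The counts of loci called also moved with the setting. With the replicate number as a block they were 268 in the zones of proscoop12 control (167 without it), 10 for SCOOP12 in Ws MEZ (2), 11 in Ws DZ (3), 23 in proscoop12 MEZ (7) and 50 in proscoop12 DZ (11), 58 and 81 in the zones of Ws and proscoop12 with SCOOP12 (8 each), and 1 for genotype in DZ with SCOOP12 (0). For the difference of the SCOOP12 effect between the zones, they were 26 in proscoop12 (5) and 9 in Ws (0). With that block, MIR842 gave 0.98 and MIR846 -0.62 in proscoop12 DZ with SCOOP12, and no precursor value left the spread of its main value. Without the filter the counts were 11, 11, 19 and 22 for SCOOP12 in Ws MEZ, Ws DZ, proscoop12 MEZ and proscoop12 DZ, and 4 for genotype in DZ control. DESeq2 called 5 loci for SCOOP12 in Ws MEZ and 22 in proscoop12 DZ. With the groups exchanged, 0 loci were called for SCOOP12 in Ws MEZ, Ws DZ or proscoop12 DZ and for genotype in MEZ control, where leaving out both mismatched libraries also gave 0. Replicates 1 and 3 alone gave 205 in the zone average, 74 in the zones of proscoop12 control, 0, 0, 1 and 3 for SCOOP12 in the order above, and 0 for genotype in MEZ control.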
